A study of Homo sapiens with 15 samples.

Results

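The genes described here are the long intergenic noncoding RNAs, the genes whose symbol starts with LINC, that reached a mean of at least 0.5 CPM in MCF10A cells. CPM is a gene's share of all gene counts of a library, in parts per 1000000. The genes were chosen by their symbol and by their mean CPM over all 15 libraries. The deposited table lists 2294 genes with such a symbol among 62754 Ensembl genes. Of these, 969 had a count in any library and 174 (7.59% of the LINC genes) reached the level. MCF10A is an established, non-tumorigenic human breast epithelial line of WT genotype per the labels. Cells were grown at 0.04, 0.12, 0.20 or 0.28 mM glutamine in DMEM/F12 made without glutamine, or at the 2.5 mM of full medium. All 5 groups had 3 biological replicates, and per the labels' protocols the line was kept in mammary epithelial growth supplements with cholera toxin and antibiotics. All results come from 1 cell line, and the sources used here do not give the length of the limitation. The comparisons ask how the levels of these RNAs follow the supply of glutamine.

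Long intergenic noncoding RNAs are transcribed from stretches between protein-coding genes, are mostly spliced and polyadenylated, and carry no long open reading frame. Some act on the gene beside them, some gather chromatin regulators or RNA-binding proteins, and many have no known function. They are typically less abundant and more restricted to particular cell types than messenger RNAs, and a symbol with LINC and a number says only that the locus was annotated, not that a role is known.

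That these genes are expressed is therefore a description and not a result. Just inside the level were LINC00589 (0.502 CPM) and LINC03049 (0.502 CPM), and just outside LINC02018 (0.486 CPM) and LINC00239 (0.485 CPM). The mean weighs 12 limited libraries against 3 of full medium, so near the level the choice favours genes that are high under limitation. Of the 174 genes, 17 had a mean under 0.5 CPM in full medium and not over the limited libraries, against 3 the other way, and LINC02012 and LINC01127, called below, are among the 17. In all 5 groups 141 of the 174 genes had a group mean of at least 0.5 CPM, 33 fell under it in some group, and 0 reached it in only 1 group.

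The libraries held 3704170 to 13361406 gene counts, the shallowest being 0.04 mM replicate 3. The median LINC gene had 13 counts in a library, against 167 for all 14958 genes at the same level. Mitochondrial ribosomal RNA took over 1% of gene counts in 2 libraries, 0.04 mM replicate 3 (2.97%) and 0.12 mM replicate 3 (1.62%). The label of breast epithelium was met by 10 of 10 basal markers at 5 CPM or more, KRT5 among them at a mean of 6796 CPM, and by CDH1 at 84.2 CPM. Of 9 luminal markers 3 reached 5 CPM, namely KRT18 at a mean of 393.7 CPM, KRT8 at 125.5 CPM and GATA3. Of the others, ELF5 was at 0 and ESR1 and KRT19 were near 0. Of 6 immune markers 0 reached 5 CPM.

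Sequences are given for 4 genes whose level differed between limited and full medium, so that their loci can be recognised. The windows for LINC02454, LINC01940 and LINC00265 run from 250 bases before to 50 bases after the annotated start in RefSeq (GRCh38.p14) and are written along the gene's strand. They lie at chr12:65602619-65602918 (plus strand), chr2:238926220-238926519 (minus strand) and chr7:39733318-39733617 (plus strand). Capitals mark the matches found to a set of short motifs, TEAD (GGAATG or its reverse complement) in the first 2 and the cAMP response element (TGACGTCA) in the last. For LINC00707, the opening 120 bases of the longest GENCODE 29 transcript are given (GRCh38, chr10:6872944-6873063, plus strand), with nothing marked.
LINC02454 window: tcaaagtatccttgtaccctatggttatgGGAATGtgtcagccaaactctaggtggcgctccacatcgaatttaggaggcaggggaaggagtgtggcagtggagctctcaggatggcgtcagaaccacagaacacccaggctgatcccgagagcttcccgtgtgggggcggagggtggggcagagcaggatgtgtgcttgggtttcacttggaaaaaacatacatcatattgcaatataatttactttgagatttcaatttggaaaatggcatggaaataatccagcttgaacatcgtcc
LINC01940 window: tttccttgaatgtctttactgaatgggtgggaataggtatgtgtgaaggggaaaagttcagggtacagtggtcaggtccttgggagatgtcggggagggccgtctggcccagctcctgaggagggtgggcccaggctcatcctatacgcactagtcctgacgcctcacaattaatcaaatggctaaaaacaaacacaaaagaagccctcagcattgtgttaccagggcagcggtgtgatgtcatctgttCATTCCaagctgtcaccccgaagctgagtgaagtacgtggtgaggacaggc
LINC00265 window: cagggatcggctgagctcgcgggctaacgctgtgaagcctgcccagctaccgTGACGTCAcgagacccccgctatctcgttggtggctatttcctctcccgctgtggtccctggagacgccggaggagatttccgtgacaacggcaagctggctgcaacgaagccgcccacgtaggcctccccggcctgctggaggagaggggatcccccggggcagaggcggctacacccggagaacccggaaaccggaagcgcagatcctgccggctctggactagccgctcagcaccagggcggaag
LINC00707 transcript: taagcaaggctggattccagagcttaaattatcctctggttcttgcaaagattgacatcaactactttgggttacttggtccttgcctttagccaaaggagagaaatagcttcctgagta

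Most motif matches were at about the frequency of all promoters, while the CCAAT box was more frequent. Of the 174 genes, 125 had an entry in the promoter table, with 143 windows in all. TEAD was found on either strand in 13.3% of these windows and in 14.03% of all 35116 windows. The cAMP response element stood in 2.80% against 1.85%, AP-1 (TGANTCA) in 8.39% against 7.71%, the E-box (CACGTG) in 8.39% against 7.26% and the C/EBP-ATF element (TGATGNAA) in 3.50% against 3.62%. The CCAAT box (CCAAT) was found in 43.4% against 34.6%, and the TATA box (TATAAA) in 12.6% against 11.5%. These shares were not tested, the searched words do not overlap one another in the 3 windows shown, and a match is not a binding site.

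Expression was concentrated in a few loci. The 3 most abundant LINC genes held 23.7% of all counts of the 174, and the top 10 held 46.3%. Above 10 CPM stood 20 genes, between 1 and 10 CPM 97 and under 1 CPM 57, around a median of 1.43 CPM. By mean CPM the top 10 were LINC00707 (86.0), LINC00665 (57.5), LINC00511 (55.2), LINC02693 (33.1), LINC-PINT (33.1), LINC00641 (30.1), LINC03061 (29.4), LINC00662 (25.3), LINC01503 (23.3) and LINC02987 (19.7). Several are known from other work: LINC-PINT is a p53-induced transcript linked to Polycomb repression, and LINC00511 and LINC00665 have been studied mainly in tumour cells. LINC01503 is known from squamous carcinoma, where its transcription depends on the basal factor TP63.

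Per kilobase of exon, the scale on which levels of different genes may be compared, the order was another. LINC01503 led with 14.6 CPM per kb, followed by LINC02595 (12.4), LINC02454 (9.495), LINC00707 (8.74) and LINC00665 (7.98). LINC00511, with 27605 exon bases in GENCODE 29, came to 2.00 CPM per kb. This length counts every annotated exon. Per kilobase of the longest transcript LINC00707 led with 27.7 CPM per kb, ahead of LINC01503 (25.9), LINC00665 (21.0), LINC00511 (14.7) and LINC02454 (13.9), so the order depends on which isoforms are counted.

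**Figure D1:**
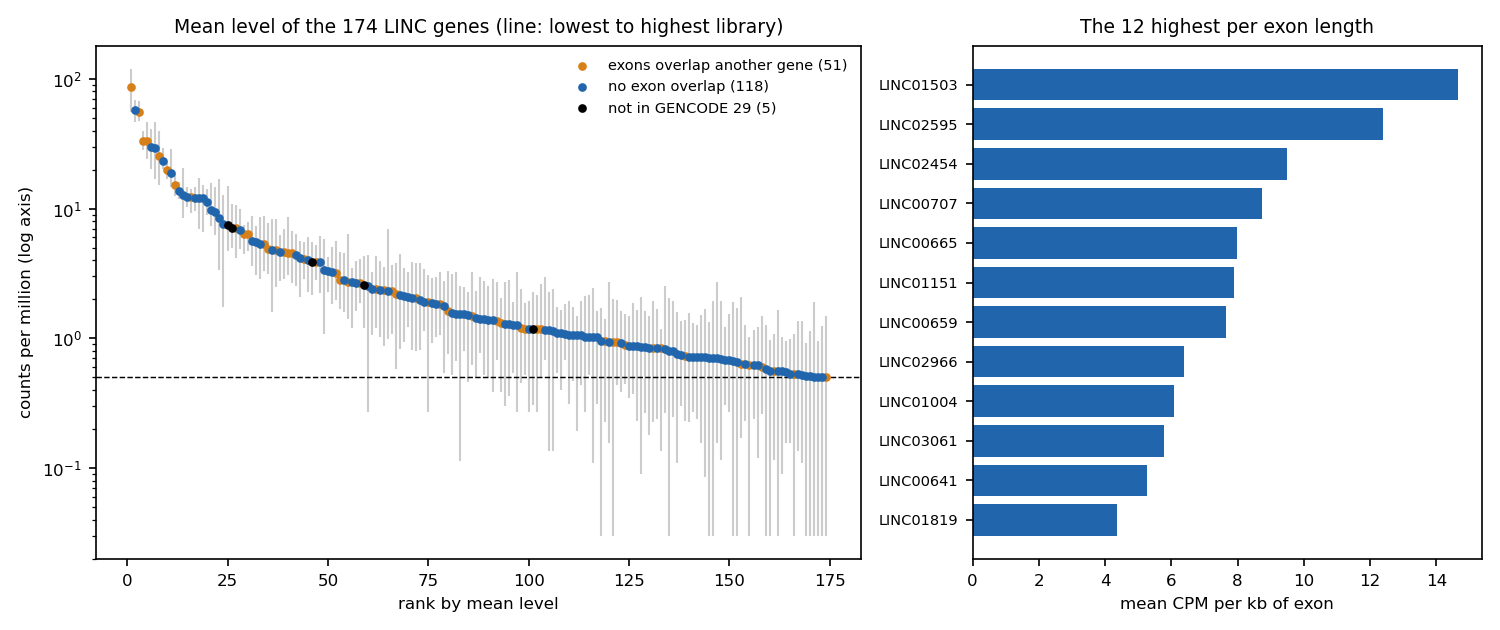
Left, the mean CPM (log axis) of the 174 LINC genes by rank, each line running from the lowest to the highest of 15 libraries and drawn down to no less than 0.03 CPM; the dashed line is 0.5 CPM. Right, the mean CPM per kb of exon of the 12 highest genes on that scale: LINC01503 stands at 14.6 and LINC00707 at 8.74 when all annotated exons count, while LINC00707 led in CPM with 86.0.

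Reads of overlapping genes can be confused, and how the reads were counted, by strand or not, is unknown from the sources used here. GENCODE 29 held 169 of the 174 genes, and 5 were not in it. It typed 143 as lincRNA, 11 as processed transcript, 9 as antisense and 1, LINC02693, as protein-coding, so a LINC symbol does not always mark an intergenic noncoding gene there. Exons of 51 overlapped exons of another gene, by over 20% of their length in 13 and by over 50% in 2, while 118 had no such overlap. The overlap was on the same strand for 20. LINC00707 shared 16.6% of its exon bases with the unnamed noncoding genes AL158210.2, AL392086.2 and AL392086.3 of the same strand, whose own means were 0.886, 0 and 0 CPM. LINC-PINT shared 29.6%, with MKLN1 among its partners. Only 81 of its exon bases lay inside the body of MKLN1, against 9015 inside that of AC016831.6, a noncoding gene of the same strand without a value in the deposited counts. LINC02454 had no exon overlap but lay wholly inside the body of AC025419.1 of the opposite strand, which had 0.0803 CPM. A stretch of at least 200 bases at 98% identity or more to a gene elsewhere in GENCODE 29 was found in 11 of 169 longest transcripts. It covered over 50% of the transcript in LINC00623 (100%) and LINC01719 (62.3%), whose counts are therefore uncertain, and 6.95% in LINC00265.

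Limited and full medium libraries were compared with edgeR's quasi-likelihood test over all 14958 genes with Benjamini-Hochberg adjustment, and a gene is called where its adjusted p was under 0.05. Libraries of the same replicate number resembled each other, so the replicate number was made a block. Each change below is a log2 fold change from that fit with an approximate standard error (SE). The SE was calculated back from the test, as the size of the change divided by the square root of the F statistic. It can be unreliable where a change is very close to 0. The 4 comparisons use the same 3 full medium libraries and are therefore not independent of one another. The counts are shares of a library, so lower RNA per cell and fewer cells that express a gene cannot be told apart.

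At 0.04 mM glutamine, 8 LINC genes were called higher than in full medium and 1 was called lower. Those higher were LINC00707, LINC03061, LINC02454, LINC02012, LINC01151, LINC01940, LINC00662 and LINC01127, and the lower one was LINC00265. The 8 are 4.60% of the 174, against 6.34% of all genes tested that were higher, and the 1 is 0.575%, against 5.71% lower. The share called therefore lay under the background in both directions. Of the 8, LINC02012 and LINC01127 had a mean under 0.5 CPM in full medium, so the choice of genes favours their rise. Without the block 0 of the 174 were called by edgeR, against 0.0401% of all genes. An unadjusted p under 0.05 was then reached by 14 (8.05%, against 11.1% of all genes), and DESeq2 without the block called 3 (LINC00707, LINC02454 and LINC03061).

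LINC00707, the most abundant of these RNAs, is a chromosome 10 transcript (6779549 to 6879450 in GENCODE 29, plus strand) studied mainly in tumour cells. It had 85.1, 119.6 and 96.4 CPM at 0.04 mM, 78.9, 102 and 85.7 at 0.12 mM, 94.1, 95.2 and 89.8 at 0.20 mM, then 71.5, 87.0 and 89.3 at 0.28 mM, against 56.0, 73.6 and 65.1 CPM in full medium. Every library at the 3 lower concentrations lay above every full medium library, and 1 of the 0.28 mM libraries lay within their range. Group means were 100.3 ± 17.6, 88.9 ± 11.99, 93.1 ± 2.86 and 82.6 ± 9.71 CPM from 0.04 to 0.28 mM and 64.9 ± 8.80 CPM in full medium (SD, n = 3 each). At 0.04 mM the change was 0.63 (SE 0.0833, edgeR adjusted p = 4.4e-06), higher in 3 of 3 pairs of the same number, and 0.0926 was the adjusted p without the block.

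LINC03061 (chromosome 13) lies in a stretch with no exon of another gene, and its nearest coding gene, MYO16, was almost silent at a mean of 0.0231 CPM. Its level was 27.3, 30.2 and 43.5 CPM at 0.04 mM, 25.9, 35.2 and 31.3 at 0.12 mM, 22.7, 31.6 and 39.1 at 0.20 mM, then 20.6, 31.9 and 46.7 at 0.28 mM, against 17.04, 17.9 and 20.3 CPM in full medium. All 12 limited libraries stood above the 3 full medium libraries, and within the limited groups they spread over more than the gap between the groups. The change at 0.04 mM was 0.85 (SE 0.14, edgeR adjusted p = 0.000111), or 0.168 as adjusted p without the block.

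LINC02454 (chromosome 12, 65602869 to 65612997, plus strand) is short, with 895 exon bases. It was measured at 8.19, 9.92 and 17.01 CPM at 0.04 mM, 7.20, 8.31 and 9.13 at 0.12 mM, 7.52, 13.4 and 10.4 at 0.20 mM, then 6.59, 7.36 and 9.21 at 0.28 mM, against 3.41, 6.53 and 3.36 CPM in full medium. No full medium library reached the lowest limited one, although replicate 2 of full medium (6.53 CPM) came close to replicate 1 at 0.28 mM (6.59 CPM). At 0.04 mM it rose by 1.32 (SE 0.23, edgeR adjusted p = 0.000203), with an adjusted p of 0.109 without the block.

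**Figure D2:**
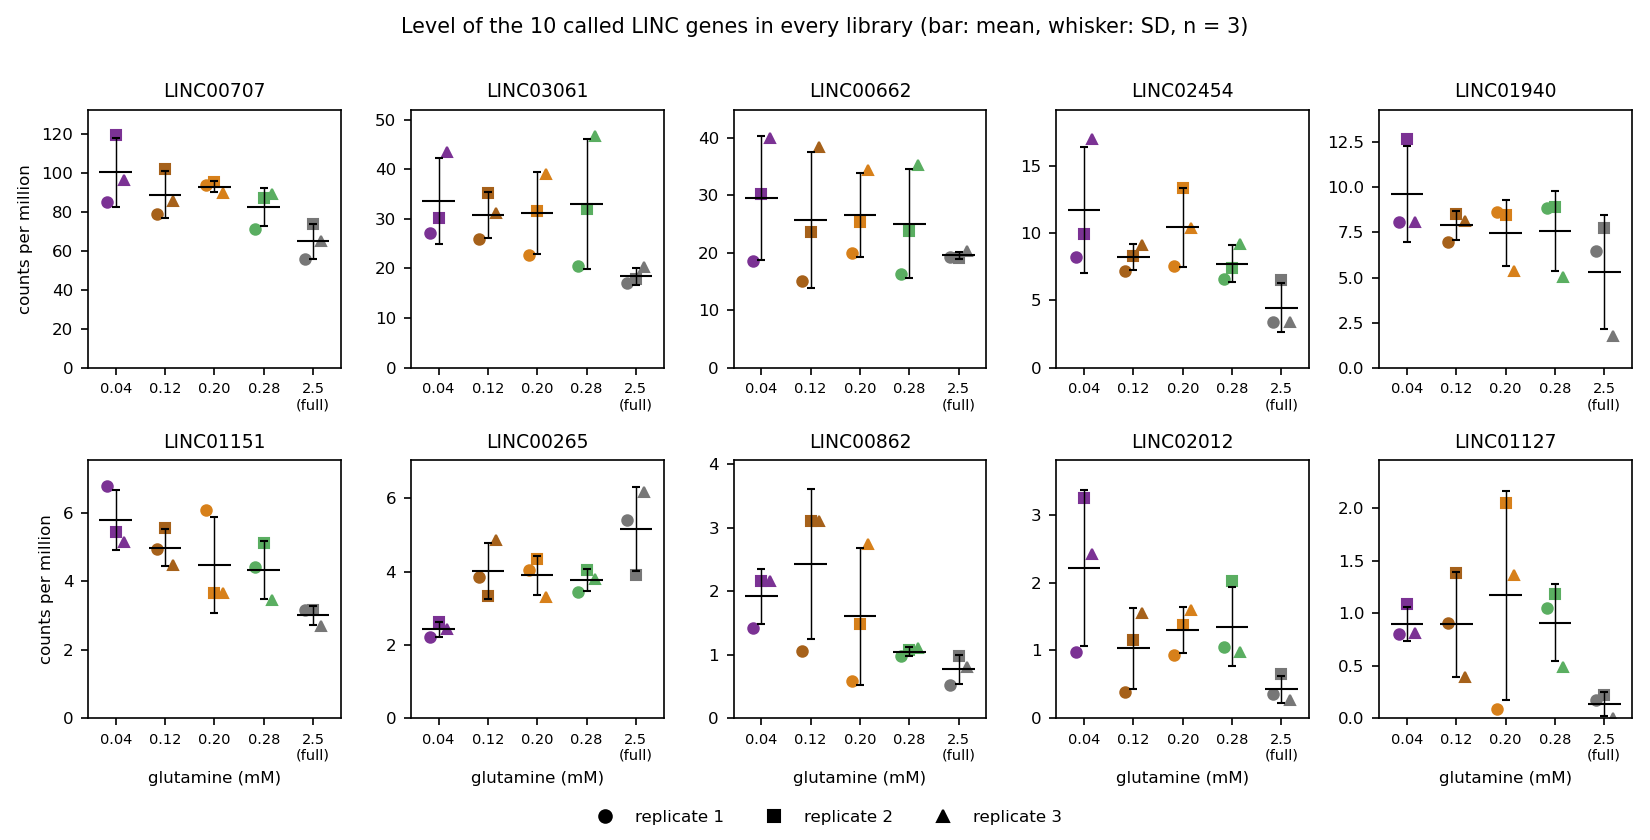
CPM of the 10 LINC genes called in any comparison with full medium, by glutamine concentration (mM), 1 panel per gene with its own axis from 0. Points are libraries, shapes replicate numbers, bars the mean and whiskers the SD (n = 3); the limited libraries of LINC03061 (20.6 to 46.7 CPM) all lie above full medium (17.04 to 20.3 CPM), and LINC00265 alone is lowest at 0.04 mM.

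LINC00265 was the only LINC gene called lower at 0.04 mM. It is a chromosome 7 transcript (39733632 to 39793092, plus strand) with 2.23, 2.63 and 2.43 CPM at 0.04 mM, against 5.42, 3.92 and 6.17 CPM in full medium. Its counts were 25, 17 and 9 at 0.04 mM against 62, 36 and 46 in full medium, with no overlap between the groups on the CPM scale. The log2 change was -1.08 (SE 0.28, edgeR adjusted p = 0.00906, and 0.141 without the block). At the 3 higher limited concentrations the libraries overlapped with full medium, and its changes of -0.38, -0.42 and -0.46 did not pass (adjusted p = 0.404, 0.279 and 0.38).

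LINC01151, on chromosome 8, had 6.77, 5.42 and 5.13 CPM at 0.04 mM, against 3.15, 3.16 and 2.68 CPM in full medium, a rise of 0.96 (SE 0.25, edgeR adjusted p = 0.00958). LINC01940 (chromosome 2, 238919302 to 238926269, minus strand) had 8.10, 12.7 and 8.10 CPM at 0.04 mM, against 6.47, 7.73 and 1.74 CPM in full medium, a rise of 0.81 (SE 0.24, adjusted p = 0.0227). The groups of both genes did not overlap, but in LINC01940 the gap was small and rested in part on 1 library. Without full medium replicate 3, its change was 0.55 (adjusted p = 0.119), and without 0.04 mM replicates 2 or 3 it was 0.71 (adjusted p = 0.153 and 0.0808). LINC01151 had an adjusted p of 0.0726 without 0.04 mM replicate 1, and LINC00265 one of 0.0784 without the same library.

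LINC00662 (chromosome 19, 27684580 to 27793940, minus strand) had 18.5, 30.2 and 40.0 CPM at 0.04 mM, against 19.3, 19.1 and 20.3 CPM in full medium. The groups overlapped and only 2 of 3 pairs were higher. Its change was 0.51 (SE 0.151, edgeR adjusted p = 0.0231, and 0.508 without the block). Like all edgeR calls at 0.04 mM with the 0.5 CPM filter, the call was made only with the block. The LINC00662 call was lost without full medium replicate 3 (0.28, adjusted p = 0.251), full medium replicate 2 (0.1), 0.04 mM replicate 2 (0.134) or 0.04 mM replicate 3 (0.0969), and also with scaling to the spike-ins (0.0621). Without both libraries rich in mitochondrial ribosomal RNA, LINC00662 had 0.42 (adjusted p = 0.101) and LINC01940 0.66 (0.0692), and LINC01127 2.57 (0.0746). The 6 other genes called at 0.04 mM passed without those libraries.

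The remaining 2 calls at 0.04 mM were of rare RNAs. Both had a mean under 0.5 CPM in full medium and met the level through the limited libraries, a choice that favours a rise. LINC02012 (chromosome 3, 197505262 to 197506986, minus strand) had 11, 21 and 9 counts at 0.04 mM against 4, 6 and 2 in full medium, that is 0.980, 3.25 and 2.43 CPM against 0.350, 0.653 and 0.268 CPM. The groups did not overlap, and it rose by 2.23 (SE 0.529, edgeR adjusted p = 0.00447). LINC01127 (chromosome 2, 101962056 to 101987167, plus strand) had 9, 7 and 3 counts at 0.04 mM against 2, 2 and 0 in full medium. Its change of 2.58 (SE 0.866, adjusted p = 0.0456) was lost on leaving out any 1 of these 6 libraries (adjusted p = 0.0536 to 0.147).

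At 0.12 mM, 5 LINC genes were called higher (2.87% of the 174, against 3.83% of all genes) and 0 lower (against 3.56%). LINC00707 rose by 0.46 (SE 0.0823, edgeR adjusted p = 0.000549), LINC03061 by 0.76 (SE 0.137, 0.00061) and LINC02454 by 0.89 (SE 0.231, 0.0135). LINC00862, a chromosome 1 transcript on the minus strand (200253419 to 200400705), had 1.06, 3.12 and 3.11 CPM at 0.12 mM, against 0.524, 0.980 and 0.805 CPM in full medium. Its groups did not overlap, with a change of 1.56 (SE 0.442, adjusted p = 0.0251). LINC01127 had 12, 12 and 2 counts at 0.12 mM against the 2, 2 and 0 of full medium (2.63, SE 0.828, adjusted p = 0.0454). Both of these depended on single libraries: LINC00862 was lost without 4 of the 6 (adjusted p = 0.0694 to 0.169) and LINC01127 without 5 (0.0528 to 0.164). LINC02454 was lost without 0.12 mM replicate 1 (0.0828) or full medium replicate 3 (0.112). LINC01127 met the 0.5 CPM level through the limited libraries, so its place in the set favours a rise. Without the block 0 were called by edgeR, against 0% of all genes, while 12 had an unadjusted p under 0.05 (6.90%, against 7.88% of all genes) and DESeq2 called 0.

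At 0.20 mM, 4 LINC genes were called higher (2.30%, against 6.63% of all genes) and 0 lower (against 6.54%). They were LINC00707 (0.51, SE 0.0811, edgeR adjusted p = 8.28e-05), LINC02454 (1.18, SE 0.221, 0.000541), LINC03061 (0.69, SE 0.135, 0.000785) and LINC01127 (2.79, SE 0.808, 0.019). LINC01127 had 1, 18 and 12 counts at 0.20 mM, and its lowest limited library lay within the full medium range. Its call was lost without 4 of the 6 libraries (adjusted p = 0.064 to 0.134), and its place in the set, through the limited libraries, favours a rise. Without the block 0 were called by edgeR, against 0.0134% of all genes, while 12 had an unadjusted p under 0.05 (6.90%, against 9.73%) and DESeq2 called LINC02454 alone.

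At 0.28 mM, the mildest limitation, 2 LINC genes were called higher (1.15%, against 1.02% of all genes) and 0 lower (against 0.715%). LINC03061 rose by 0.78 (SE 0.135, edgeR adjusted p = 0.00162) and LINC00707 by 0.35 (SE 0.0818, 0.0204). LINC03061 lost the call without 0.28 mM replicate 3 (0.60, adjusted p = 0.0839). LINC00707 lost it without 0.28 mM replicate 1 (0.0683) or 3 (0.255) and without full medium replicate 2 (0.0715) or 3 (0.0616). Without the block 0 were called by edgeR, against 0% of all genes, while 9 had an unadjusted p under 0.05 (5.17%, against 4.33%) and DESeq2 called 0.

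Across the 4 comparisons 10 LINC genes were called at least once, LINC00707 and LINC03061 in all 4, LINC02454 and LINC01127 in 3, and 6 genes in 1. Since the same 3 full medium libraries enter all 4 comparisons, a repeated call is not an independent one. LINC01127 and LINC02012, counted here, had a mean under 0.5 CPM in full medium, so their calls are not separate from the choice of genes.

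**Figure D3:**
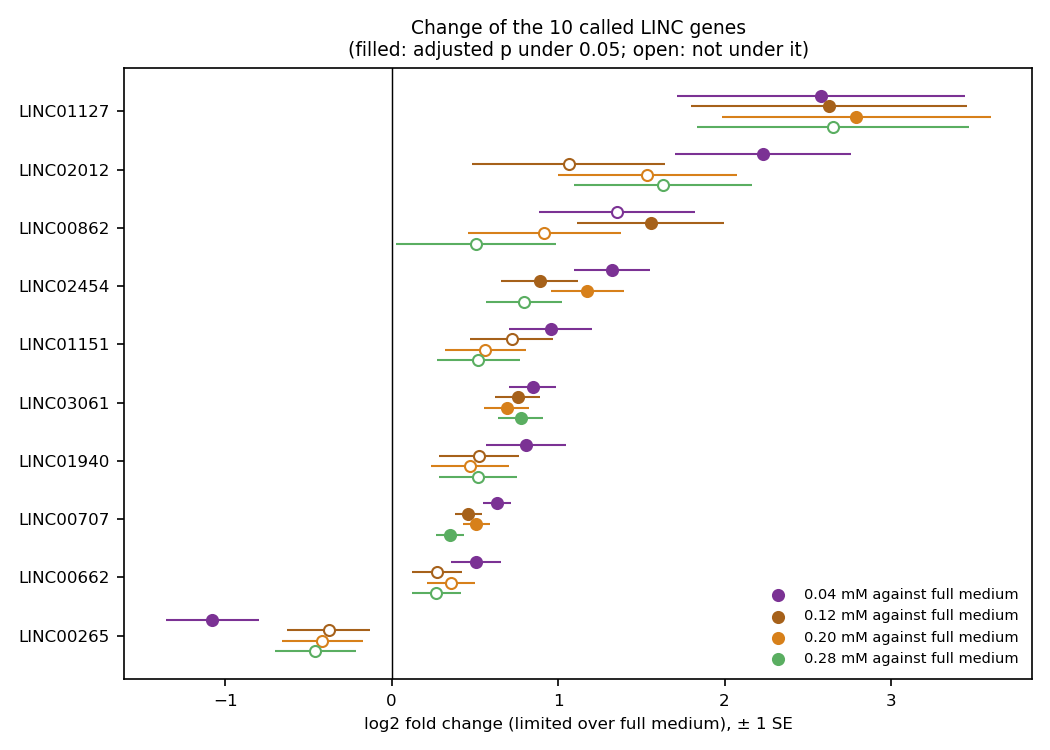
Log2 fold change (limited over full medium, ± 1 SE, replicate number as a block) of the 10 LINC genes called in any comparison, from 0.04 mM at the top of each row to 0.28 mM. Filled points have an adjusted p under 0.05; LINC00707 and LINC03061 are filled in all 4, and the SE grows from 0.0833 for LINC00707 to 0.866 for LINC01127 at 0.04 mM.

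No difference between the lowest and the highest of the limited concentrations passed the test for any of the 174 genes. At 0.04 against 0.28 mM 0 were called by edgeR with the block, against 0.0201% of all genes higher and 0.0334% lower, while 7 had an unadjusted p under 0.05 (4.02%, against 8.60%) and DESeq2 called 0. By CPM alone, 9 LINC genes had all 3 libraries at 0.04 mM above those at 0.28 mM and 10 all 3 below, against 2.21% and 4.49% of all genes. LINC00707 had 0.28 (SE 0.0816, adjusted p = 0.223) and LINC03061 0.07 (SE 0.131, 0.924) in that comparison, and LINC00265 -0.62 (SE 0.29, 0.553). A slope over log2 concentration in the 12 limited libraries was called for 0 LINC genes by edgeR, against 0% of all genes, while 10 had an unadjusted p under 0.05 with the block (5.75%, against 7.43%) and DESeq2 called 0.

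Changes of LINC genes were measured less precisely than those of most genes. The median SE of the log2 change at 0.04 mM was 0.466 for the LINC genes and 0.135 for all genes. At 10 CPM or more 3 of 20 LINC genes were called, against 17.7% of all genes of that level. Between 1 and 10 CPM it was 5 of 97 (5.16% against 3.998%), and under 1 CPM 1 of 57 (1.75% against 0.748%). At 0.20 mM the LINC share was the lower one at both higher levels, with 2 of 20 (against 19.9% of all genes) and 1 of 97 (1.03% against 3.38%) called. At 0.12 mM the shares were 2 of 20 (against 10.9%) and 2 of 97 (2.06% against 2.29%), and at 0.28 mM 2 of 20 (against 2.64%) and 0 of 97 (against 0.397%). The median SE at 0.04 mM under 1 CPM was 0.659 for LINC genes and 0.658 for all genes. None of these differences was tested. The gene called under 1 CPM at 0.04 mM was LINC01127, whose place in the set favours a rise. For 56 of the 174 genes the change at 0.04 mM plus or minus 1.96 SE stayed within a 2-fold change either way, while for the other 118 that range reached beyond it. Changes of more than 2-fold were estimated for 19 genes, of which 4 were called.

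**Figure D4:**
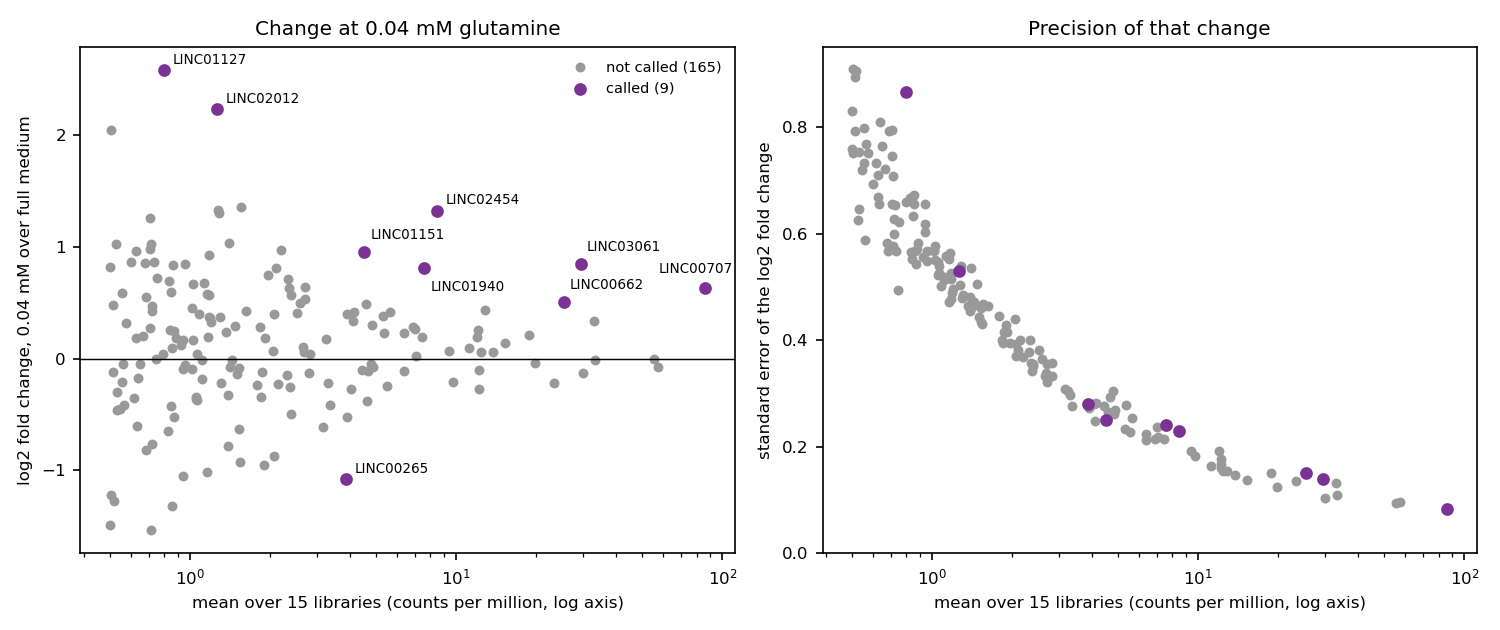
Left, the log2 fold change at 0.04 mM over full medium of the 174 LINC genes against their mean CPM (log axis); right, the SE of the same change. Purple points are the 9 called genes; at 10 CPM or more 3 of 20 were called, and the SE rises toward 0.9 near 0.5 CPM.

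Most abundant LINC genes showed no detectable change. LINC00665 had 57.5, 54.2 and 54.0 CPM at 0.04 mM, against 57.2, 51.7 and 69.4 CPM in full medium (-0.08, SE 0.0967, edgeR adjusted p = 0.679). LINC00511 had 48.4, 52.8 and 61.01 CPM at 0.04 mM, against 56.1, 50.7 and 53.7 CPM in full medium (0.00, SE 0.094, 0.996). The 0.04 mM libraries of LINC00665 all lay within the full medium range, and those of LINC00511 reached from below it to above it. LINC02693 (-0.02, SE 0.11), LINC00641 (-0.13, SE 0.104), LINC01503 (-0.21, SE 0.135) and LINC02987 (-0.04, SE 0.124) also missed the threshold at 0.04 mM (adjusted p = 0.335 to 0.949). LINC-PINT had 24.9, 36.9 and 46.4 CPM at 0.04 mM, against 28.05, 29.2 and 24.2 CPM in full medium, and its change of 0.33 did not pass (SE 0.133, adjusted p = 0.0979). The 4 comparisons gave it 0.23 to 0.34 without a call.

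Over all 174 genes the middle of the distribution lay slightly above 0. The genes were chosen by a mean over 12 limited and 3 full medium libraries, which favours positive changes near the level. How much of the shift this makes was not tested. All genes are not a reference of like level, since 57 of the 174 lay under 1 CPM, against 1738 of 14958. The median log2 change was 0.16 at 0.04 mM, 0.12 at 0.12 mM, 0.06 at 0.20 mM and 0.07 at 0.28 mM, against medians of 0.00 for all genes in each. Over the 118 genes without exon overlap the medians were 0.06, 0.12, 0.01 and 0.05. Positive changes numbered 102, 107, 98 and 101 of 174 (58.6, 61.5, 56.3 and 58.1%, against 50.5, 50.5, 50.2 and 49.6% of all genes). Among the 20 genes above 10 CPM the medians were 0.08, 0.09, 0.02 and 0.12. With libraries scaled to the ERCC spike-ins in place of TMM, the median of all genes moved to -0.18 at 0.12 mM and -0.13 at 0.28 mM. The LINC medians became -0.05 and -0.06 there, so their sign at those 2 concentrations depended on the scaling, while relative to all genes they stayed higher. At 0.04 and 0.20 mM they were 0.16 and 0.02 under that scaling.

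Counted by CPM alone, 16 LINC genes at 0.04 mM had all 3 libraries above full medium and 5 all 3 below it, 9.20% and 2.87% against 5.66% and 9.11% of all genes. The counts were 14 above and 7 below at 0.12 mM (background 4.83% and 7.38%), 16 and 6 at 0.20 mM (6.28% and 7.81%) and 12 and 6 at 0.28 mM (3.94% and 5.11%). By group mean, full medium was the lowest of the 5 groups for 66 genes and the highest for 32. The like counts over all genes were not made. The choice of the 174 also favours genes low in full medium. A mean under 0.5 CPM there and not over the limited libraries was found for 17, against 3 the other way. Together the 174 genes took 0.0886% ± 0.0116, 0.0863% ± 0.00784, 0.0866% ± 0.00788 and 0.0845% ± 0.00933 of gene counts from 0.04 to 0.28 mM and 0.0776% ± 0.00155 in full medium (SD, n = 3 each). Exact two-sided permutation tests gave p = 0.3, 0.1, 0.1 and 0.3, where 0.1 is the smallest that 3 against 3 allows. With this floor the tests could not pass the threshold used for the calls, whatever the data. The share is also summed over the genes so chosen, so no conclusion is drawn from these p-values. These tests did not use the pairing by replicate number. The share was higher than in the full medium library of the same replicate number in 2, 3, 3 and 2 of 3 pairs. From 0.04 to 0.28 mM, replicate 1 had 0.0771, 0.0804, 0.0818 and 0.0771%, against 0.0777% in full medium. Replicate 2 had 0.0885, 0.0833, 0.0823 and 0.0815%, against 0.0760%. Replicate 3 had 0.1003, 0.0952, 0.0957 and 0.0950%, against 0.0791%, and its first 2 are the libraries rich in mitochondrial ribosomal RNA.

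Markers of other cell types were summed in the same libraries. The summed CPM of 6 fibroblast markers was 50.8 to 60.5 at 0.04 mM and 33.5 to 43.3 in full medium, nearly all from COL1A1 and DCN, with 2 of 6 at 5 CPM or more, LUM at 0 and COL1A2 and PDGFRA under 0.1 CPM on average. The 4 endothelial markers summed to 5.89 to 12.1 CPM at 0.04 mM and 3.58 to 5.91 CPM in full medium, nearly all of it PECAM1, with CDH5 at 0, and these ranges overlapped. The 6 immune markers summed to 2.43 to 3.03 CPM at 0.04 mM and 1.49 to 1.88 CPM in full medium, most of it CD14, with CD3E at 0. Their part in the LINC changes was not tested.

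The replicate number moved many of these RNAs. In the fit with the block, 42 of the 174 LINC genes differed between replicate numbers (24.1%), against 46.3% of all genes (edgeR, Benjamini-Hochberg); the test was added after the pairing was seen. LINC00641 averaged 21.5, 32.3 and 36.5 CPM over the 5 libraries of replicate numbers 1, 2 and 3 (adjusted p = 7.69e-08) and LINC00662 averaged 17.9, 24.4 and 33.7 (6.12e-06). LINC01605 went the other way with 6.74, 5.33 and 2.40 CPM (1.31e-06). LINC03061 (0.000221), LINC01940 (0.00177) and LINC00707 (0.00303), all called against full medium, differed by replicate number as well. In LINC03061 and LINC00662 the replicates lay closer together in full medium than at 0.04 mM. The block assumes the same replicate effect in every group, and whether a change differed by replicate number was not tested. What the numbers stand for is not given in the labels. LINC00887 varied most within groups among genes of at least 2 CPM, with a coefficient of variation of 61.95%. It had 1.96, 1.70 and 7.02 CPM at 0.04 mM, against 2.18, 0.980 and 2.42 CPM in full medium, and only 0.04 mM replicate 3, the shallowest library, stood apart (0.72, SE 0.401, adjusted p = 0.268).

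**Figure D5:**
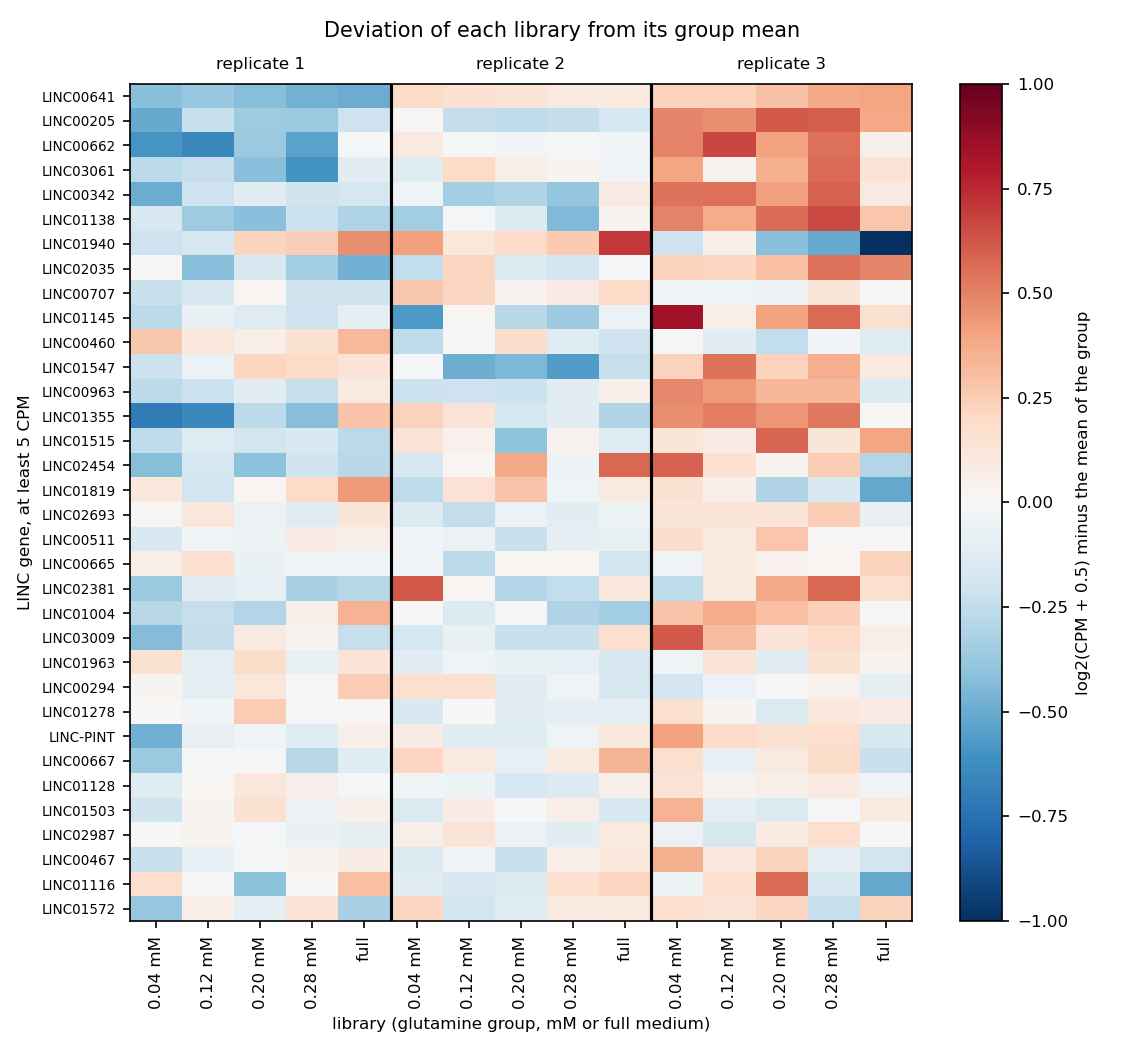
Difference of each library from its group mean in log2(CPM + 0.5), colours limited to -1 and 1, for the 34 LINC genes of at least 5 CPM (rows, ordered by the test of replicate number) in 15 libraries (columns, by replicate number and then group). LINC00641, at the top, is below its group means in all 5 libraries of replicate 1 and above them in all 5 of replicate 3.

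Coding genes beside the called LINC genes were then compared. A nearest protein-coding gene was found for 173 LINC genes, overlapping 19 of them and within 10000 bases of 84, at a median distance of 11638 bases. Over 136 neighbouring pairs with both genes tested, the log2 changes at 0.04 mM had Pearson's r = 0.07 and Spearman's rho = 0.07 across genes, a description over pairs that share their libraries. LINC02454 and MSRB3, a methionine sulfoxide reductase 111439 bases away, both rose at 0.04 mM. MSRB3 averaged 38.3 ± 8.29 CPM at 0.04 mM and 30.5 ± 4.18 CPM in full medium (SD, n = 3 each; 0.34, SE 0.116, adjusted p = 0.0476, and 0.403 without the block). The zinc finger gene ZNF281, 4235 bases from LINC00862, rose at 0.04 mM (0.38, SE 0.0887, 0.00415) and at 0.20 mM (0.36, SE 0.0853, 0.00477), whereas LINC00862 passed at 0.12 mM only and had an adjusted p of 0.0536 at 0.04 mM.

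The neighbours of the other called genes were not called at 0.04 mM or were too low to be tested. The difference between a gene and its neighbour was not tested. TWIST2, a transcription factor 8759 bases from LINC01940, had 0.10 (SE 0.101, edgeR adjusted p = 0.59) at 0.04 mM. BDH1, a ketone body dehydrogenase 2797 bases from LINC02012, had -0.01 (SE 0.0813, 0.947), and RALA, a small GTPase 25508 bases from LINC00265, had 0.03 (SE 0.0908, 0.897). PRKCQ, a protein kinase C gene 199248 bases from LINC00707, had 0.33 (SE 0.222, 0.377) and ZHX2, a zinc finger and homeobox gene 87288 bases from LINC01151, had 0.46 (SE 0.164, 0.0606). IL1R2, beside LINC01127, and MYO16, beside LINC03061, were too low to be tested, and so was KCNJ12 beside LINC02693. The neighbours of other abundant LINC genes also missed the threshold at 0.04 mM: ZFP14 beside LINC00665 (0.08, SE 0.349, adjusted p = 0.916), SLC39A11 beside LINC00511 (-0.14, SE 0.186, 0.684), IER5L beside LINC01503 (-0.13, SE 0.122, 0.531) and UQCRFS1 beside LINC00662 and LINC02987 (-0.03, SE 0.0922, 0.897). MKLN1, the gene of muskelin, which overlaps LINC-PINT, rose (0.37, SE 0.0973, 0.0102), and HNRNPC, an RNA-binding protein gene 2236 bases from LINC00641, fell (-0.30, SE 0.0724, 0.00585).

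Within 10000 bases of each other lay 7 pairs of LINC genes. LINC00662 and LINC02987 overlap at their starts on opposite strands, and at 0.04 mM only LINC00662 was called (0.51 against -0.04 for LINC02987, SE 0.124, edgeR adjusted p = 0.883); the difference between them was not tested. LINC02777 and LINC01135, an overlapping pair of about 1.4 and 1.3 CPM, had 1.04 (SE 0.536) and 1.31 (SE 0.539), neither called (adjusted p = 0.223 and 0.112). In the other 5 pairs neither gene was called at 0.04 mM.

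Among other noncoding RNAs, those named by their position beside a coding gene were also counted. With the block 5.17% of LINC genes, 1.91% of 366 antisense genes (-AS) and 1.55% of 194 divergent transcripts (-DT) were called at 0.04 mM, against 14.2% of 12119 protein-coding genes; the shares were not tested against each other, and the classes differ in depth. Of 60 well-known long noncoding RNAs with other names, 37 were tested. At 0.04 mM 4 were called higher and 3 lower, at 0.12 mM 2 and 1, at 0.20 mM 5 and 2, and at 0.28 mM 0 and 0. TUG1, a nuclear RNA linked to Polycomb, had 120.7 ± 10.5 CPM at 0.04 mM and 99.6 ± 16.1 CPM in full medium (0.31, SE 0.0698, adjusted p = 0.00311), and MALAT1, a nuclear speckle RNA, had 1803 ± 443 and 1328 ± 158 CPM (0.42, SE 0.097, 0.00331). MIR100HG, host of a microRNA cluster, rose by 0.42 (SE 0.116, 0.0131). H19, an imprinted RNA, fell by 1.04 (SE 0.279, 0.0116), with 3.001 ± 1.18 CPM at 0.04 mM and 6.94 ± 5.50 CPM in full medium (SD, n = 3 each). None of the 37 was called by edgeR without the block at any concentration.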

How the data were processed

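RNA of 15 MCF10A samples was depleted of ribosomal RNA and sequenced with ERCC spike-ins, per the labels' protocols. The authors deposited a table of whole-number read counts per gene for 62754 Ensembl genes and 92 spike-ins, aligned to GRCh38.p14 per the submitters' processing notes. All 15 columns matched a sample, and 0 were left over. The sources used here name no aligner, counter, annotation or strand rule. CPM was computed over the library's Ensembl gene counts, spike-ins left out. Symbols were found for 42343 genes, and loci, exon overlaps and lengths came from GENCODE 29.

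Counts of all 14958 genes with a mean of at least 0.5 CPM over 15 libraries were tested with edgeR 4.0.16 (R 4.3.3, limma 3.58.1): TMM factors, 1 quasi-likelihood fit of 5 groups, Benjamini-Hochberg adjusted p under 0.05. The planned fit had no block. The replicate numbers, which the labels give to every group, were then checked for pairing: with group means removed, 30 of 30 pairs of libraries sharing a number correlated above 0.1 (r = 0.157 to 0.412 over all tested genes, against -0.337 to 0.0383 for different numbers). The number was therefore taken as a block. The design names the replicates biological, but not what separates them (day, passage or dish), and p-values measure the spread between these libraries.

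As alternatives the tests were run with DESeq2 1.42.0, with DESeq2 size factors given to edgeR, with scaling to summed ERCC counts, with filterByExpr, with no filter beyond 1 count, and with each library left out, the 2 libraries with over 1% mitochondrial ribosomal RNA left out, and replicate 3 left out of all groups. Sequence copies were sought with BLAST 2.17.0 (at least 98% identity over 200 bases). The code was tested on simulated counts. Python 3.11.15 and matplotlib 3.10.9 handled tables and figures. The LINC genes, lists and tests were chosen with earlier results of these data known. Named are the 10 highest genes, all called genes, the 2 genes on either side of 0.5 CPM, the gene with the largest within-group variation at 2 CPM or more, their nearest coding neighbours, and the 4 other noncoding RNAs with the smallest adjusted p at 0.04 mM; the leading genes of the replicate test, per-length ranking, sequence copies and gene pairs were named after their values were seen. The proteome of the series was not used here.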

Additional observations from a re-analysis of the deposited data

How the results depend on the processing

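The calls depended on the replicate number as a block: in edgeR with the 0.5 CPM filter 0 LINC genes passed without it at any concentration, and with the replicate block 9, 5, 4 and 2 passed from 0.04 to 0.28 mM, against 0 in both fits for 0.04 against 0.28 mM and for the slope. Without the block, DESeq2 called 3 at 0.04 mM and 1 at 0.20 mM, and dropping the filter gave 4, 1, 2 and 1 from 0.04 to 0.28 mM (159, 58, 84 and 19 of all genes). With the block, 0.12 mM had 3 under DESeq2, 3 under ERCC scaling, 3 without the libraries rich in mitochondrial ribosomal RNA and 2 without replicate 3 of all groups. At 0.28 mM the counts were 1 under ERCC scaling, 4 with no filter and 0 without replicate 3 of all groups. Leaving out 1 library at a time gave 6 to 13 calls at 0.04 mM, 2 to 8 at 0.12 mM, 3 to 7 at 0.20 mM and 0 to 4 at 0.28 mM with the block, and 0 in every such fit without it. The slope over all 15 libraries, full medium included, called 11 LINC genes with the block (10 higher at low glutamine, 1 lower) and 2112 of all genes. ERCC scaling changed the split of all called genes at 0.12 mM to 71 higher and 1055 lower, against 573 and 533 with TMM. LINC00707 lost its call under it at 0.12 mM (0.28, adjusted p = 0.165) and 0.28 mM (0.23, 0.425). The cause of these differences was not tested. Of the 20 calls of a gene in a comparison, 9 held in every fit that left out 1 library: those of LINC00707 and LINC03061 at the 3 lower concentrations, of LINC02454 at 0.04 and 0.20 mM and of LINC02012 at 0.04 mM. LINC02012, and LINC01127 among the 20 calls, met the 0.5 CPM level through the limited libraries, so their place in the set favours a rise. No change of sign occurred among the 20. DESeq2 gave no adjusted p for LINC02012, LINC01127 and LINC00862. With filterByExpr, 135 of the 174 LINC genes could be tested. The median LINC gene had 13 counts a library.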
